A study of Mus musculus with 6 samples.

Results

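The genes described here encode enzymes of cholesterol and fatty acid synthesis and the proteins that regulate them. They were taken from a list of 34 gene symbols, and each of the 34 had a record among the 32879 genes to which the deposited records could be assigned. The list holds 18 enzymes of sterol synthesis, 7 regulators and transport proteins, and 9 genes of fatty acid synthesis, elongation and desaturation. It does not hold every step of these pathways.

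RNA was sequenced from cell-sorted peritoneal macrophages (PMs) of 3 control and 3 diseased-BWF1 mice, with 1 library per mouse. PMs were sorted with F4/80 and CD11b among the markers, and all mice were female. The study compared PMs of lupus-prone mice after disease onset with those of mice of similar age. The authors deposited whole numbers for each RefSeq record, which were taken as estimated read counts. The control mice were F1 offspring of New Zealand white and BALB/c parents, aged 33, 33 and 30 weeks. The diseased-BWF1 mice were F1 offspring of New Zealand black and New Zealand white parents, aged 31, 31 and 34 weeks, with high titres of antibodies to double-stranded DNA and severe proteinuria. Disease and parental strain therefore differed together between the groups, and their parts in any difference cannot be told apart.

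Cells build cholesterol from acetyl-CoA through mevalonate, squalene and lanosterol, and build fatty acids from the same precursor through malonyl-CoA. When membrane sterol is low, the protein Scap carries the SREBP precursors, encoded by Srebf1 and Srebf2, to the Golgi, where they are cut and released to activate most genes of both routes. Insig proteins hold Scap back in the endoplasmic reticulum when sterol is plentiful. Macrophages also take up cholesterol with the cells and debris they engulf, so that synthesis is not their sole source.

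Total counts were 5003360, 4187106 and 3629901 in control 1, 2 and 3 and 4307327, 4226538 and 4083357 in diseased-BWF1 1, 2 and 3. In these libraries 3 counts of a gene made 0.652 to 0.888 CPM, a count scaled to the same library total on genes. That floor describes counting error alone, because PCR copies of a molecule are counted separately. The counts of a gene's records were summed, normalized counts used DESeq2's size factors, and every SD is over 3 mice. The 10505 genes that passed the low-count filter were tested with edgeR's quasi-likelihood fit. Called genes had an adjusted p (Benjamini-Hochberg) below 0.05 together with a difference of 1.5-fold or more.

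Markers of PMs were abundant in every library. The 8 PM markers Adgre1, Itgam, Csf1r, Gata6, Timd4, Icam2, Cd14 and Lyz2 together had 119537 to 172093 counts per mouse, with most from Lyz2. By edgeR 0 of the 8 were called, and 3 had an unadjusted p under 0.05, Timd4 and Icam2 lower in diseased-BWF1 mice (log2 fold changes -0.531 and -0.555) and Cd14 higher (0.876). The groups did not overlap for 4 that were lower (Adgre1, Timd4, Icam2 and Lyz2) and 1 that was higher (Cd14). These were 50% and 12.5% of the 8, against 11.2% and 9.59% of all tested genes, and the unadjusted p-values under 0.05 were 25% lower and 12.5% higher, against 7.57% and 5.62%. Without Lyz2 the list summed to 45500, 44400 and 38500 normalized counts in control mice and 44800, 44900 and 43300 in diseased-BWF1 mice. The T cell list summed to 13 counts at most, the neutrophil and eosinophil lists to 18 each, the erythroid list to 4, the mesothelial list to 3 and the mast cell list to 2. Of the 7 adipocyte markers, 4 were listed at 0 in every library (Adipoq, Cidec, Lep and Cfd). Plin1 had 0 to 5 counts per mouse and Plin4 0 to 7, and in normalized counts Plin4 was higher in every diseased-BWF1 mouse than in every control mouse. Fabp4, the most abundant gene of that list, is also expressed by macrophages and had overlapping groups. The list summed to 65.4, 72 and 192 normalized counts in control mice and 150, 111 and 163 in diseased-BWF1 mice. The monocyte marker Hp was called higher in diseased-BWF1 mice, with 188.6, 160.5 and 281.3 normalized counts in control mice and 726.1, 739.3 and 1019 in diseased-BWF1 mice. Of the 6 dendritic cell markers, Cd209a, the most abundant, was called lower, with 134, 212.9 and 280.2 normalized counts in control mice and 7.554, 18.23 and 5.043 in diseased-BWF1 mice. The list summed to 169, 251 and 322 normalized counts in control mice and 60.4, 68.9 and 35.3 in diseased-BWF1 mice. Without Cd209a it summed to 34.8, 38.1 and 41.3 against 52.9, 50.6 and 30.3, and Zbtb46, the other tested marker, had a log2 fold change of 0.41 with overlapping groups. None of these 6 was at 0 in all libraries. The part of these shifts in the levels below was not tested, and in sorted bulk RNA fewer cells of a type and less RNA per cell cannot be told apart. The 7 genes of the cycling cell list, which can bear on lipid demand, summed to 530, 306 and 420 normalized counts in control mice and 579, 313 and 343 in diseased-BWF1 mice, with 0 called.

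The library of control 3 stood apart. Its correlation with the other control libraries over tested genes was 0.913 and 0.907, against 0.945 between control 1 and control 2. Genes were divided into 4 equal classes of transcript length. Among genes in the shortest class, its median log2 ratio to the other 5 mice was 0.24. Among genes in the longest class, of at least 4657 bases, it was -0.27. In the other 5 mice the same medians lay between -0.07 and 0.12. Control 3 was the lowest mouse for 10 of the 32 tested genes of the list (31.2%, against 25% of all tested genes). These included Acaca, Scd1, Scd2 and Stard4, which are 4 of the list's 8 tested genes in the longest class. The cause was not tested. Without control 3, 0 genes of the list and 39 of all genes were called, 4 genes of the list had an unadjusted p under 0.05 and the median log2 fold change of the list was -0.093. Group values of long genes are also given without this mouse where its removal turns their direction.

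**Figure D1:**
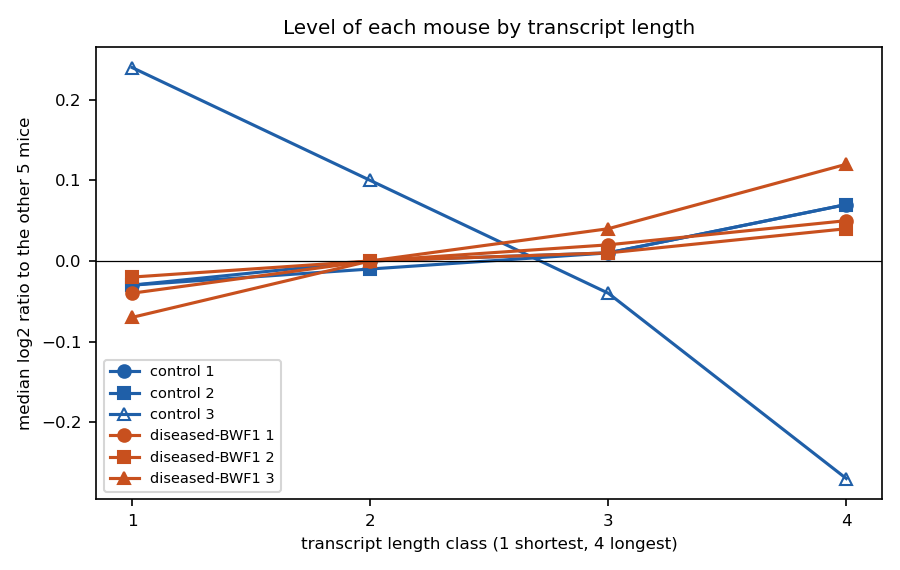
Median log2 ratio of each mouse to the other 5 mice (vertical axis) in 4 equal classes of transcript length (horizontal axis), over tested genes with a median of at least 20 counts. Control 3 falls from 0.24 in the shortest class to -0.27 in the longest, while the other 5 mice stay between -0.07 and 0.12.

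Levels can be compared between genes only per length of transcript. The 5 highest genes of the list were Acly, Elovl5, Acaca, Insig1 and Mylip, with 288.0, 152.0, 58.0, 30.6 and 26.0 CPM per kilobase as means of the 6 mice. Acly, which makes cytosolic acetyl-CoA from citrate, was above 98.0% of the tested genes, and Elovl5, an elongase of polyunsaturated fatty acids, above 96.6%. The sterol synthesis enzymes were low on this scale. Their median was 3.5 CPM per kilobase, against 9.28 over tested genes, and 16 of the 18 lay below that median. The exceptions were Ebp, a sterol isomerase, with 19.7, and Mvd, the decarboxylase of the mevalonate route, with 16.1. Fasn, the fatty acid synthase itself, had 5.6, about the level of Pmvk with 5.79. The desaturase gene Scd1 had 0.955 and its relative Scd2 had 2.27. Srebf1 and Srebf2 had almost the same level per length, 11.1 and 10.8, and did not differ beyond the spread of the mice.

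**Figure D2:**
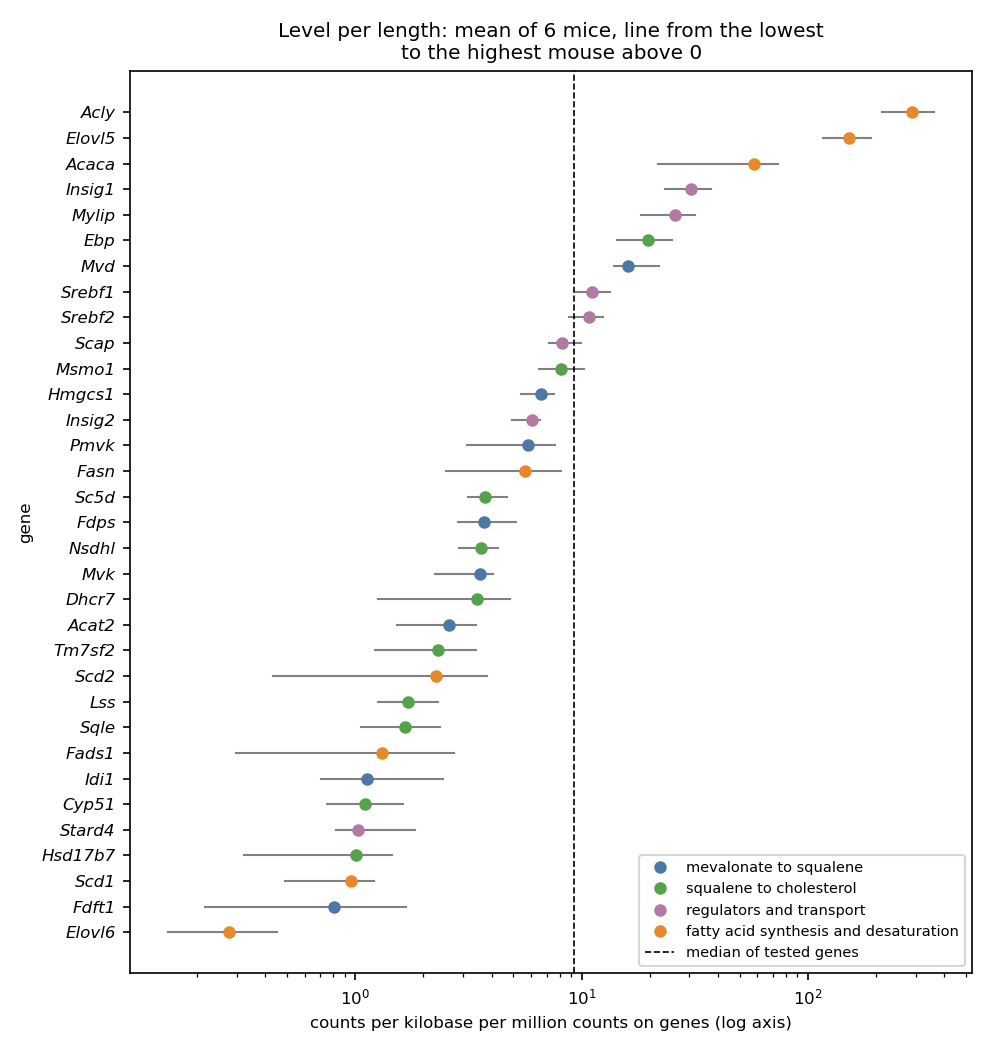
CPM per kilobase of transcript (horizontal log axis) for 33 genes of the list. Points are means of 6 mice, coloured by role, and lines run from the lowest to the highest mouse above 0. Acly stands highest at 288.0 and Elovl6 lowest at 0.277, and most sterol enzymes lie left of the dashed median of tested genes, 9.28.

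Of the 34 genes, 32 passed the low-count filter. Fads1 was called lower in diseased-BWF1 mice and 0 genes were called higher. Over all tested genes, 0.819% were called lower and 0.4% higher, so 1 gene of 32 says little about the list as a whole. DESeq2 also called Fads1 and no other gene of the list, against 2.28% of tested genes called lower and 1.27% called higher with that package. Of the list, 2 genes had an unadjusted p under 0.05, Fads1 and Insig1, both lower, and 0 were higher, against 7.57% lower and 5.62% higher over all tested genes. In 6 genes every diseased-BWF1 mouse lay below every control mouse (Pmvk, Sqle, Msmo1, Insig1, Scap and Fads1), against 11.2% of all tested genes. In 3 genes every diseased-BWF1 mouse lay above (Acat2, Mvd and Nsdhl), against 9.59%. The list's shares were 18.8% and 9.38%, so the second was near the background and the first rested on 6 genes. The median log2 fold change was 0.009 over the 32 genes and 0.005 over all tested genes, with 15 genes below 0 and 17 above. Without the filter, the median over 33 genes was -0.003. Of the 32 genes, 28 differed by less than 1.5-fold, and for 18 the 95% interval of the fold change lay within 2-fold in either direction. For the other genes a 2-fold difference was not excluded by the interval, apart from Fads1, whose whole interval lay beyond it. A single-gene exact permutation test of 3 mice against 3 cannot give a p below 0.1.

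**Figure D3:**
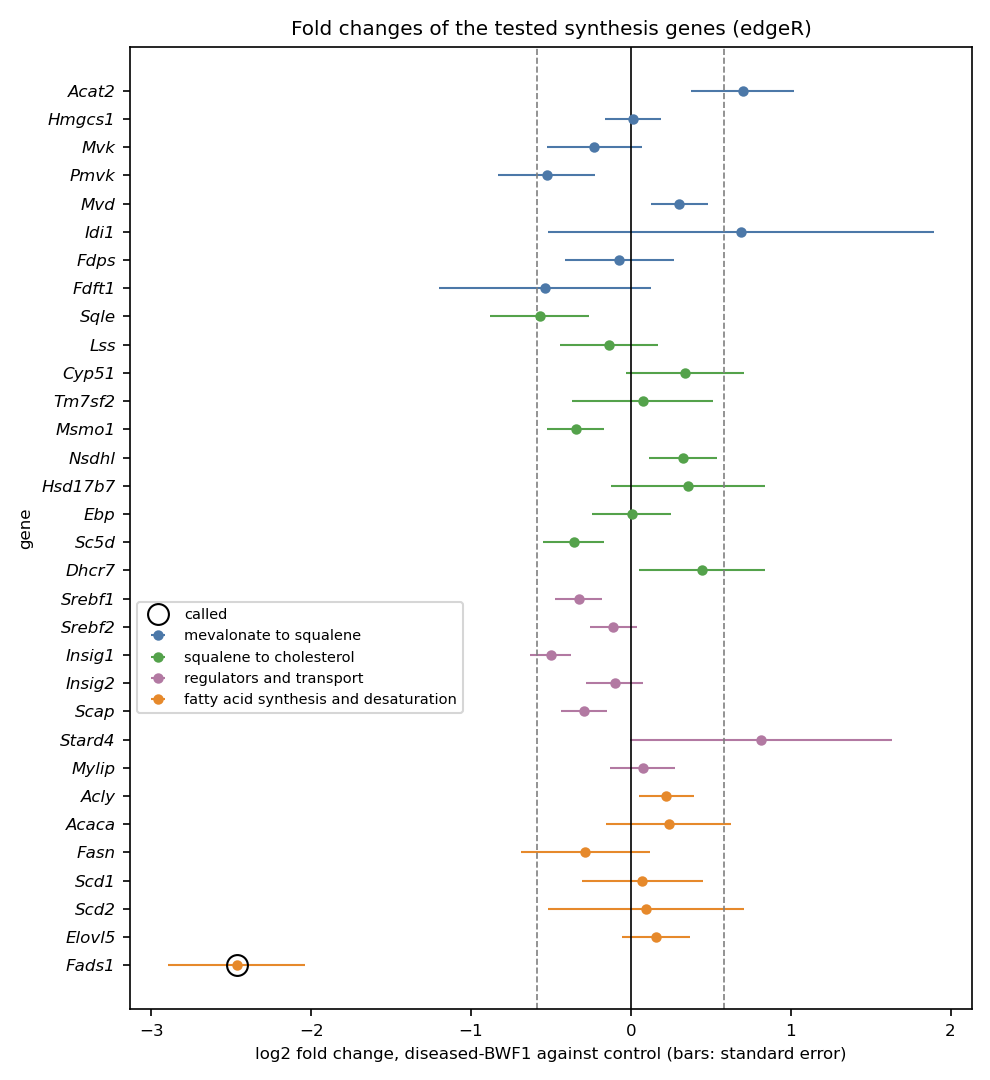
Log2 fold change of diseased-BWF1 against control mice from edgeR (horizontal axis) for the 32 tested genes in order of role. Bars are standard errors, dashed lines mark 1.5-fold and the ring marks the called gene. Fads1 lies at -2.47, and the other genes lie between -0.57 and 0.82.

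The 18 enzymes from acetyl-CoA to cholesterol had nearly equal sums in the groups. Together they had 726.5, 713.9 and 759.1 normalized counts in control 1, 2 and 3 and 770.5, 736.3 and 723.1 in diseased-BWF1 1, 2 and 3. The means were 733.1 ± 23.3 and 743.3 ± 24.5 (SD, n = 3), and the ranges of the groups overlapped. By edgeR 0 of the 18 were called, 0 had an unadjusted p under 0.05, and DESeq2 also called 0. The log2 fold changes ran from -0.57 for Sqle to 0.70 for Acat2, with 8 below 0 and 10 above.

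In the part of the route from acetyl-CoA to squalene, Hmgcs1, the synthase of HMG-CoA, had 85.2, 102.9 and 72.3 normalized counts in control mice and 87.8, 83.0 and 92.8 in diseased-BWF1 mice. The diseased-BWF1 mice lay inside the range of the controls. The fold change was 1.01, with a 95% interval from 0.761 to 1.34. Mvd had 101.8, 99.8 and 99.9 normalized counts in control mice and 115.2, 153.9 and 103.9 in diseased-BWF1 mice. The control mice were almost identical and all diseased-BWF1 mice lay above them, with diseased-BWF1 2 apart from the others. The log2 fold change was 0.30 (standard error 0.18), and it became 0.127 without diseased-BWF1 2. Acat2, which makes acetoacetyl-CoA, had 13.2, 13.4 and 24.1 normalized counts in control mice and 28.3, 27.3 and 26.2 in diseased-BWF1 mice. Control 3 was close to the diseased-BWF1 mice, and the other controls were well below it. For this gene the log2 fold change was 0.70 (standard error 0.32, Benjamini-Hochberg adjusted p = 0.417 in edgeR's quasi-likelihood fit). Of the 75-base sequences in Acat2 transcripts, 33.9% also occur in Acat3, so that the origin of part of its counts is uncertain. Pmvk, phosphomevalonate kinase, had 34.8, 28.8 and 29.9 normalized counts in control mice and 27.4, 23.3 and 14.1 in diseased-BWF1 mice. The gap between the groups was narrow, and diseased-BWF1 3 was lowest. For this gene the log2 fold change was -0.53 (standard error 0.30).

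The remaining 4 genes of this stretch had overlapping groups. Mvk, mevalonate kinase, had a log2 fold change of -0.23 and Fdps, which makes farnesyl diphosphate, one of -0.07. The value of Mvk ran from -0.349 to -0.015 with each mouse left out, and was -0.662 with curated mRNA records alone. Fdft1, squalene synthase, had between 3 and 21 counts per mouse, and on the log2 scale it differed by -0.537 (standard error 0.663), which became 0.14 without control 3. For Fdps, 23.5% of the 75-base sequences also occur elsewhere. Of the 75-base sequences of Idi1, the isomerase of isopentenyl diphosphate, 16.7% also occur in other genes. Idi1 had 34, 0 and 0 counts in control mice and 28, 14 and 8 in diseased-BWF1 mice. It is listed at 0 in 2 control mice whose other mevalonate genes were detected, and 101 of the 9356 genes with a median of at least 20 counts are likewise listed at 0 in some library. A listed 0 is therefore not read as absence here.

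From squalene on, Sqle, the squalene epoxidase, had 24.8, 20.6 and 17.2 normalized counts in control mice and 16.0, 11.1 and 15.1 in diseased-BWF1 mice. All diseased-BWF1 mice were lower, but control 3 and diseased-BWF1 1 nearly met. The log2 fold change was -0.57 (standard error 0.31, Benjamini-Hochberg adjusted p = 0.492 in edgeR's quasi-likelihood fit). Msmo1, a methylsterol monooxygenase, had 69.5, 60.7 and 81.5 normalized counts in control mice and 58.5, 50.6 and 57.5 in diseased-BWF1 mice. The groups did not overlap, with control 2 next to diseased-BWF1 1. The log2 fold change was -0.35 (standard error 0.18). Nsdhl, a sterol dehydrogenase, had 26.5, 27.8 and 24.1 normalized counts in control mice and 34.0, 31.4 and 33.3 in diseased-BWF1 mice. All diseased-BWF1 mice were higher by a small margin. On the log2 scale the fold change was 0.33 (standard error 0.21). Msmo1 and Nsdhl, which act in the same demethylation, thus had values in opposite directions, and neither was called.

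The groups overlapped for the other 7 genes of this stretch. Ebp had the most counts of them, with 124.1, 97.7 and 170.0 normalized counts in control mice and 140.7, 100.3 and 152.3 in diseased-BWF1 mice. Its mice varied almost as widely within each group, and the fold change was 1.00 (95% interval 0.672 to 1.5). Log2 fold changes were -0.36 for the desaturase Sc5d, -0.14 for the lanosterol synthase Lss and 0.34 for Cyp51, the lanosterol demethylase. They were 0.07 for the reductase Tm7sf2 and 0.44 for Dhcr7, which carries out a last reduction to cholesterol. The value of Dhcr7 became 0.108 without control 3, its lowest mouse, and ran up to 0.766 with another mouse left out. Hsd17b7, a sterol ketone reductase, had 20.7, 19.5 and 5.74 normalized counts in control mice and 20.8, 14.2 and 25.2 in diseased-BWF1 mice. Control 3 was far below the other 5 mice, and without it the log2 fold change of 0.36 became -0.006.

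**Figure D4:**
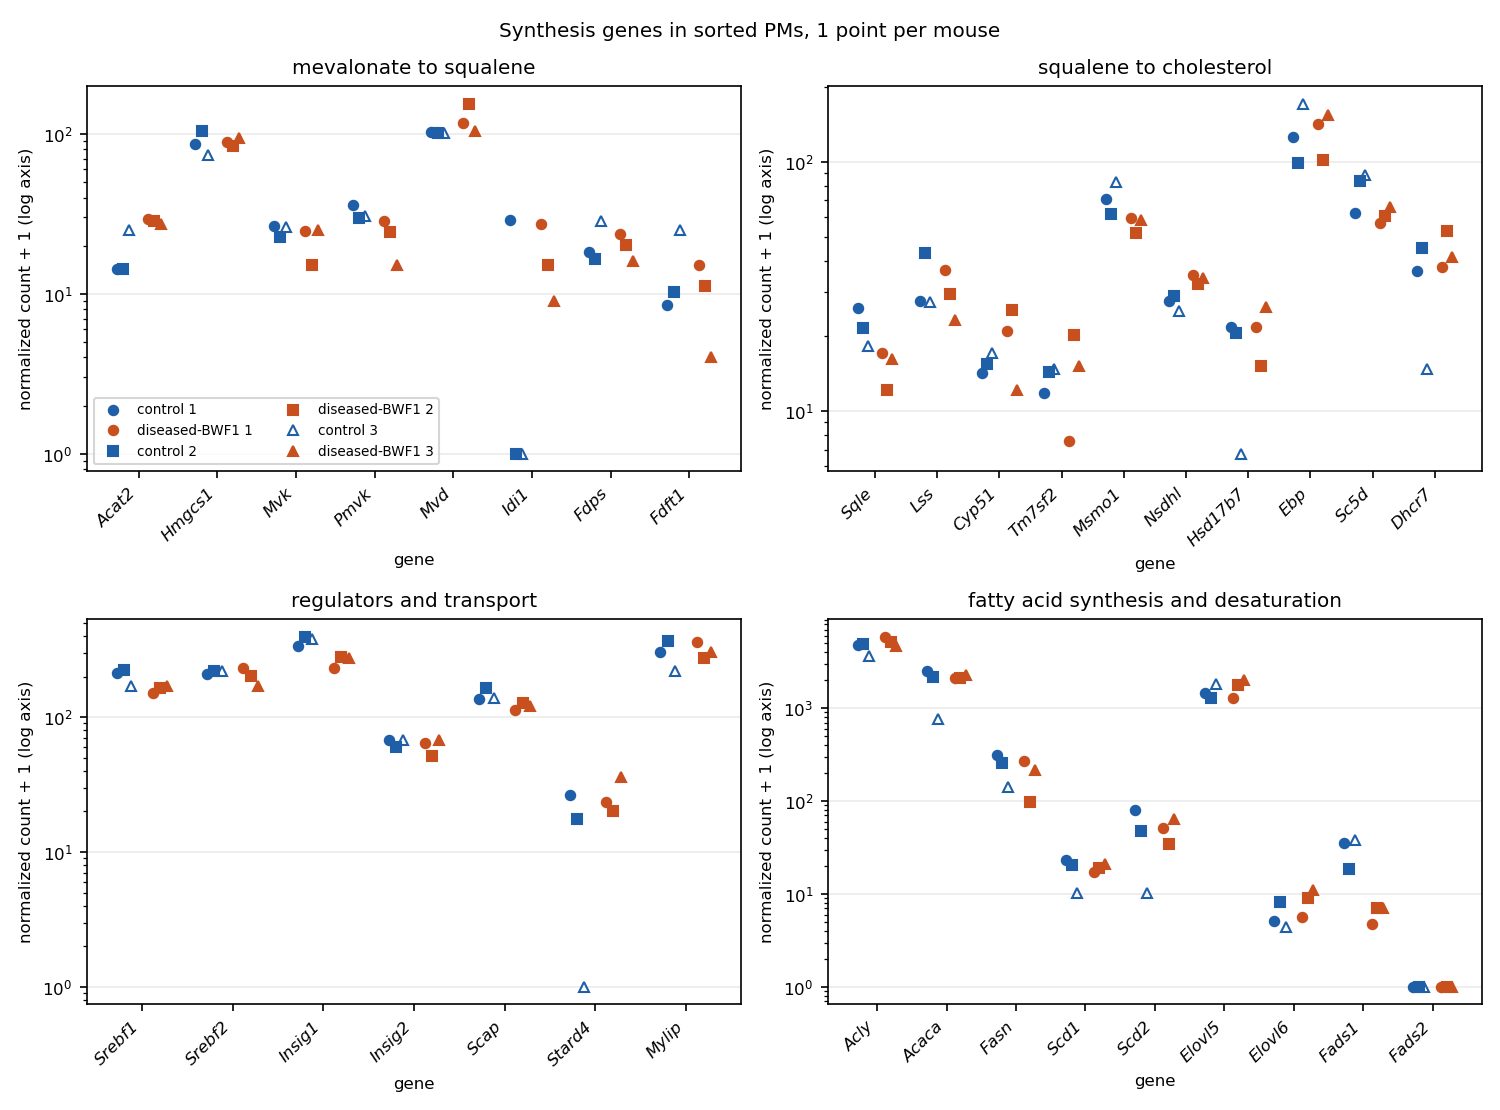
Normalized count plus 1 (vertical log axis) of each of the 34 genes in 4 role groups, with 1 point per mouse, control mice in blue and diseased-BWF1 mice in orange. Control 3 is drawn as an open triangle and lies far below the other mice for Acaca, Scd2, Stard4, Hsd17b7 and Dhcr7. Fads1 is the gene with the widest gap between the groups.

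The 7 regulators and transport proteins summed to 1292, 1443 and 1190 normalized counts in control mice and 1172, 1113 and 1140 in diseased-BWF1 mice, lower in every diseased-BWF1 mouse, with control 3 next to diseased-BWF1 1. Without Insig1 the sums were 954.8, 1048 and 813 against 939.5, 835.5 and 864.3, and the groups overlapped. Insig1 had the smallest p of the 7. It lies on chromosome 5 from 28071412 to 28078662 (GRCm38.p6). Insig1 had 337.6, 395.0 and 376.7 normalized counts in control 1, 2 and 3 and 232.3, 277.5 and 275.3 in diseased-BWF1 1, 2 and 3. Every diseased-BWF1 mouse was below every control mouse, and the gap between the groups exceeded the SD of either. The means were 369.8 ± 29.3 and 261.7 ± 25.5 (SD, n = 3). Between groups, the log2 fold change was -0.50 (standard error 0.13), a fold of 0.706 with a 95% interval from 0.573 to 0.87. The Benjamini-Hochberg adjusted p was 0.145 in edgeR's quasi-likelihood fit and 0.0862 in DESeq2, so the gene was not called. It was called in 0 of its 16 other fits, in which the log2 fold change stayed between -0.57 and -0.43.

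Srebf1 had 213.5, 223.2 and 168.8 normalized counts in control mice and 150.1, 164.1 and 170.4 in diseased-BWF1 mice. Control 3 lay among the diseased-BWF1 mice, so the groups overlapped. For this gene the log2 fold change was -0.33 (standard error 0.15, Benjamini-Hochberg adjusted p = 0.403 in edgeR's quasi-likelihood fit). Scap had 134.9, 164.6 and 139.0 normalized counts in control mice and 111.4, 127.6 and 120.0 in diseased-BWF1 mice. All diseased-BWF1 mice were lower by a narrow margin, and the log2 fold change was -0.29 (standard error 0.14). Srebf2 had a fold change of 0.927 (95% interval 0.728 to 1.18) and Insig2 one of 0.932 (0.70 to 1.24), and for both the groups overlapped. Mylip, a ubiquitin ligase for lipoprotein receptors, had 305.3, 364.2 and 218.2 normalized counts in control mice and 359.8, 272.4 and 303.6 in diseased-BWF1 mice. The diseased-BWF1 mice lay inside the range of the controls. Stard4, a carrier of cholesterol between membranes, had 31, 16 and 0 counts in control mice and 24, 19 and 35 in diseased-BWF1 mice, and is listed at 0 in control 3 alone.

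Counts of single records of a gene moved more than the sums. The Srebf1 record NM_011480.4 had 206, 217 and 88 counts in control mice and 159, 126 and 169 in diseased-BWF1 mice. The record NM_001313979.1 had 52, 0 and 59 counts in control mice and 0, 36 and 0 in diseased-BWF1 mice. Within each group the second record was at 0 in at least 1 mouse while the sum changed little, so no shift between records was read from these libraries. The same held for Hmgcs1, whose curated record NM_001291439.1 had 74, 22 and 0 counts in control mice and 0, 0 and 55 in diseased-BWF1 mice.

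Promoter sequences of RefSeq, from 250 bases before to 50 bases after a start site, were matched for 27 of the 34 genes, in 35 windows. They were searched on both strands for a sterol regulatory element core (TCACNCCAC), a CCAAT box (CCAAT) and an E-box (CACGTG). No motif contains another, and their matches did not overlap in the windows shown. Sqle, Fdps, Fdft1, Stard4, Scd1, Scd2 and Fads1 were not matched. The element core was found for 1 of the 27 genes, Hmgcs1, against 1.44% of all 27025 genes with a window. At least 1 CCAAT box was found for 22 of the 27 genes, against 41.1% of all genes. An E-box was found for 6 of the 27, against 8.09%. A match describes the letters of a window and is not a binding site, and the absence of a match says nothing about the factor. The windows of Hmgcs1, which holds the element core, and of Insig1, the regulator with the smallest p, are shown. Both are on the plus strand of GRCm38.p6, at chr13:119690101-119690400 and chr5:28071162-28071461, and capitals mark the motifs.
Hmgcs1: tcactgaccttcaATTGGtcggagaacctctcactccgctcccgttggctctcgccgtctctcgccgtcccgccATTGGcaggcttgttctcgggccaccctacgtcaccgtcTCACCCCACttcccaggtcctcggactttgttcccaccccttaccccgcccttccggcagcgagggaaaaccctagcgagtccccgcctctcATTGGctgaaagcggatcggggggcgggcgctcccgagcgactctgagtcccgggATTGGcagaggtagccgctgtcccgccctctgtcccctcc
Insig1: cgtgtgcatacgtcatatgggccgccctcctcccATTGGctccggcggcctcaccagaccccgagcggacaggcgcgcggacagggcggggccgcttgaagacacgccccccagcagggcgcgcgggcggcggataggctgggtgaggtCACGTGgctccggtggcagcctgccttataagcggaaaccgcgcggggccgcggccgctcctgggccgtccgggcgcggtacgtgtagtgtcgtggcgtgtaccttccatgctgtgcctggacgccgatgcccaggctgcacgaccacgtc
In Hmgcs1 the element core begins 137 bases before the start site, between CCAAT boxes in reverse orientation that begin 176 and 45 bases before it. Insig1 has an E-box that begins 101 bases before the start site and 1 reversed CCAAT box 216 bases before it. Between the groups the fold was 1.01 for Hmgcs1 and 0.706 for Insig1.

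The 9 genes of fatty acid synthesis, elongation and desaturation summed to 9262, 8727 and 6466 normalized counts in control mice and 9619, 9198 and 9258 in diseased-BWF1 mice. Control 3 was lowest, and the groups overlapped. Acly had 4815, 4932 and 3672 normalized counts in control mice and 5885, 5118 and 4678 in diseased-BWF1 mice. Diseased-BWF1 1 was highest and control 3 lowest, and the groups overlapped between 4678 and 4932. On the log2 scale the change was 0.22 (standard error 0.17). Acaca, which makes malonyl-CoA, had 2544, 2179 and 760.2 normalized counts in control mice and 2091, 2127 and 2251 in diseased-BWF1 mice. Control 3 was far below every other mouse, and the other 5 lay close together. Between groups, the log2 fold change of 0.24 (standard error 0.39) became -0.13 without control 3. Of the 75-base sequences of Acaca transcripts, 26.8% also occur in other genes. Fasn had 309.4, 253.1 and 141.2 normalized counts in control mice and 267.2, 96.2 and 216.8 in diseased-BWF1 mice, and neither group stood above the other. The Fasn transcript of 10050 bases is in the longest class, and control 3 was its lowest control mouse. For this gene the log2 fold change was -0.28 (standard error 0.40), and from -0.596 to 0.043 with each mouse left out.

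Elovl5 had 1453, 1273 and 1834 normalized counts in control mice and 1300, 1791 and 2012 in diseased-BWF1 mice. The ranges of the groups overlapped widely, and the log2 fold change was 0.16 (standard error 0.21). It ran from 0.024 without diseased-BWF1 3 to 0.318 without control 3. The stearoyl-CoA desaturases Scd1 and Scd2 had 8 to 27 and 8 to 96 counts per mouse, and in both genes control 3 was lowest. Their log2 fold changes of 0.07 and 0.10 became -0.21 and -0.37 without that mouse. Elovl6, an elongase of saturated fatty acids, had 3 to 10 counts per mouse and was below the filter. Fads2 was listed at 0 in every library.

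Fads1 encodes the delta-5 desaturase, which introduces a double bond in the making of arachidonic acid and other highly unsaturated fatty acids. The gene lies on chromosome 19 from 10182877 to 10196874 (GRCm38.p6), and 0% of its 75-base sequences occur in another gene. A microRNA gene, Mir6993, lies within it on the same strand. Fads1 had 42, 17 and 32 counts in control 1, 2 and 3 and 4, 6 and 6 counts in diseased-BWF1 1, 2 and 3. As normalized counts these were 34.8, 17.5 and 36.8 against 3.78, 6.08 and 6.05. Control 2 was well below the other controls, and the diseased-BWF1 mice were all close to the floor and below every control mouse. The means were 29.7 ± 10.6 and 5.30 ± 1.32 (SD, n = 3). Its log2 fold change was -2.47 (standard error 0.43, Benjamini-Hochberg adjusted p = 0.048 in edgeR's quasi-likelihood fit), a fold of 0.181 with a 95% interval from 0.0905 to 0.361. DESeq2 gave an adjusted p of 0.004.

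The call of Fads1 lay close to the threshold. The gene passed the low-count filter through the 3 control libraries and 0 of the diseased-BWF1 libraries, so it could enter the test only as a gene that differed. When the filter was dropped, the log2 fold change was -2.48 (Benjamini-Hochberg adjusted p = 0.0169 over 19833 genes in edgeR's quasi-likelihood fit). Of 15 other fits, 5 called it, and with 1 mouse removed 0 of 6 did, with adjusted p-values of those 15 from 0.004 to 0.419. On the log2 scale the change was negative in all of them, from -2.73 to -2.28. Without control 3 it was -2.29 (Benjamini-Hochberg adjusted p = 0.124 in edgeR's quasi-likelihood fit). Control 3 had the highest value of Fads1, unlike the long genes above.

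**Figure D5:**
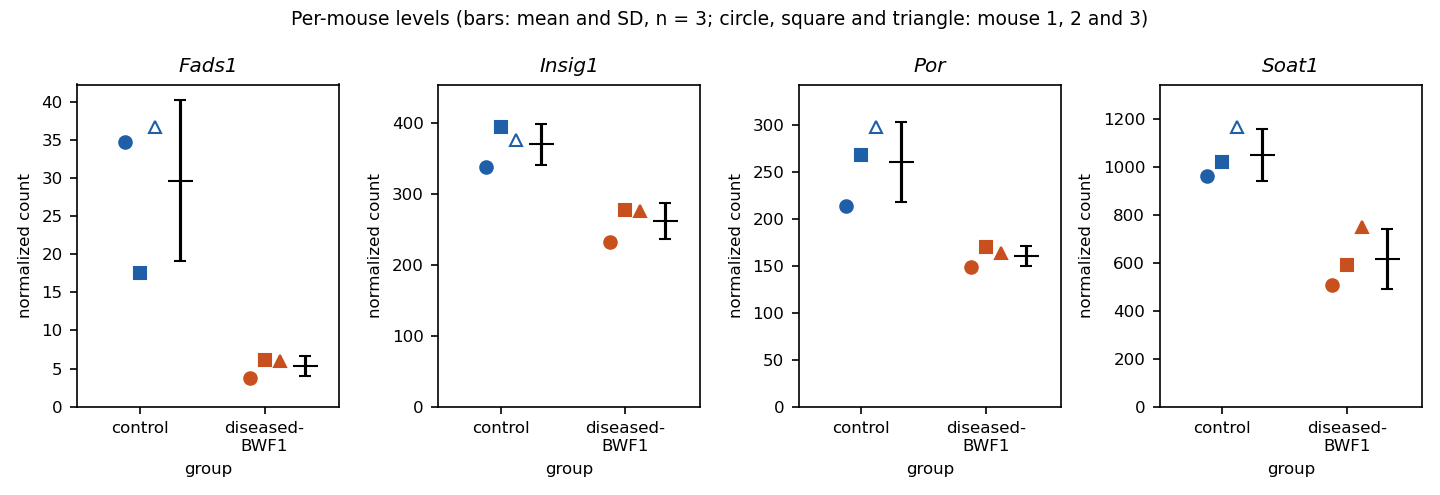
Normalized counts (vertical axes, from 0) of Fads1, Insig1, Por and Soat1 in control and diseased-BWF1 mice, with 1 point per mouse and the mean and SD of 3 mice beside them. All diseased-BWF1 mice lie below all control mice in each panel, and Fads1 has the fewest counts.

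Other genes of lipid synthesis were taken from a second list of 40 genes, of which 37 were tested. By edgeR 0 of them were called, 2 had an unadjusted p under 0.05 and were lower (Por and Hsd17b12), and 2 were higher (Lbr and Hacd2), which was 5.41% in each direction against 7.57% and 5.62% over all tested genes. The median log2 fold change was -0.014. DESeq2 called 1 of them, Por. Por encodes the reductase that passes electrons to Cyp51, Sqle and other enzymes. It had 214.3, 268.5 and 298.6 normalized counts in control mice and 149.2, 170.1 and 163.4 in diseased-BWF1 mice. The control mice were spread and all above the diseased-BWF1 mice, which lay close together. Between groups, the log2 fold change was -0.70 (standard error 0.16), with a Benjamini-Hochberg adjusted p of 0.0997 in edgeR's quasi-likelihood fit and 0.031 in DESeq2. Hsd17b12, which acts in fatty acid elongation, had 363.8 ± 14.1 and 256.4 ± 33.3 normalized counts (SD, n = 3). Its log2 fold change was -0.51 (standard error 0.13). Lbr, a sterol reductase that is also a receptor for lamin B, had 342.1 ± 17.9 and 459.7 ± 79.4, and Hacd2, a dehydratase of fatty acid elongation, had 22.1 ± 4.07 and 34.8 ± 5.08 normalized counts (SD, n = 3).

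Genes of sterol efflux, storage and trafficking formed another list of 23, of which 21 were tested. By edgeR 0 were called, and 4 had an unadjusted p under 0.05, all lower (Soat1, Npc2, Lpcat3 and Gramd1a), with 0 higher. The share that was lower was 19% here and 7.57% over all tested genes, and the share that was higher was 0% and 5.62%. The median log2 fold change was -0.179. DESeq2 called 1, Soat1, which encodes the enzyme that esterifies cholesterol for storage. Soat1 had 961.4, 1023 and 1170 normalized counts in control mice and 507.1, 591.5 and 751.4 in diseased-BWF1 mice. All diseased-BWF1 mice lay below all control mice with a clear gap. Its log2 fold change was -0.77 (standard error 0.17), with a Benjamini-Hochberg adjusted p of 0.102 in edgeR's quasi-likelihood fit and 0.00466 in DESeq2. Npc2, which hands cholesterol out of lysosomes, had 3450 ± 511 and 2366 ± 345 normalized counts (SD, n = 3), with a log2 fold change of -0.55 and a standard error of 0.18. Lpcat3, a phospholipid acyltransferase, had 174.9 ± 15.5 and 128.6 ± 22.9, and Gramd1a, a sterol carrier at membrane contacts, had 110.4 ± 19.7 and 61.7 ± 31.8 normalized counts (SD, n = 3).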

How the data were processed

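RNA-seq of sorted PMs from 3 control and 3 diseased-BWF1 mice was analysed. The whole numbers per RefSeq record that the authors deposited, 1 file per mouse, were taken as estimated counts without normalization, because they are whole, differ in total between files and Salmon is named. The submitters' processing notes name Salmon 0.8.0, DESeq2 and the build GRCm38.p6, with no role given. How reads shared by similar genes were divided is not given in the sources used here.

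Of 107193 records, 86466 were assigned to 32879 genes of a RefSeq gene table (45754 with the same version, 40712 by accession with another version), and counts were summed per gene. The 20727 unassigned records were left out. Genes held 89.1% to 93.0% of each library's counts. Fits were run with edgeR 4.0.16 under R 4.3.3, and with limma 3.58.1 and DESeq2 1.42.0 as alternatives, using filterByExpr (a minimum of 2.64 CPM), TMM and default settings, no covariate, and p-values adjusted over 10505 genes. The common dispersion was 0.0543. Size factors ranged from 0.871 to 1.21. Fold intervals at 95% came from the standard error and the t quantile of the fit. Counts per kilobase used the longest GENCODE vM21 transcript linked to a gene's records, and 96.9% of tested genes had a length. Shared sequence was counted as 75-base sequences found in transcripts of other GENCODE genes.

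The genes of the list and the other lists were chosen with earlier results of these data known. Every gene of the list is named, with per-mouse values for genes that were called, had an unadjusted p under 0.05, did not overlap between groups or were among the 5 highest per length. Values of Idi1, Hmgcs1, Ebp, Hsd17b7, Srebf1, Stard4 and Fasn are given beyond that rule and were chosen after their values were seen. Of the other lists, genes with an unadjusted p under 0.05 are named. The alternatives were DESeq2, other normalizations, other low-count filters, a replicate block, an age covariate, limma-voom, robust dispersion, curated mRNA records alone, no fold threshold, and each mouse left out in turn. The code was tested on simulated data. Every pair of libraries differed beyond sampling noise, with a chi-square per gene of 9.57 or more, so none was counted as a duplicate.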

Additional observations from a re-analysis of the deposited data

How the results depend on the processing

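Fads1 was the call that depended on the settings. The number of called genes of the list was 1 with DESeq2, other normalizations, no filter, robust dispersion and no fold threshold. It was 0 with at least 10 counts in every library, where Fads1 was not tested, and 0 with age as a covariate, limma-voom and curated mRNA records only. It was 0 whichever mouse was left out. Over all tested genes the 128 calls became 372 with DESeq2, 259 without a filter, 84 with at least 10 counts, 16 with curated records and 21 to 51 with a mouse left out. DESeq2 called 1 gene of the other lipid synthesis list and 1 of the efflux list, against 0 with edgeR. The genes with an unadjusted p under 0.05 numbered 4 with age and 2 to 4 with a mouse left out, against 2.

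With the replicate number as a replicate block, 0 genes of the list and 38 of all genes were called, and Fads1 had a Benjamini-Hochberg adjusted p of 0.114 in edgeR's quasi-likelihood fit (0.004 to 0.419 over its alternatives). Correlations of same-numbered mice were 0.096, -0.002 and 0.146, against -0.136 to 0.053 for differently numbered mice. The highest was that of the mice numbered 3, followed by that of the mice numbered 1. These correlations do not settle whether the numbers pair the mice. The labels state no pairing, and the main fit used no block for that reason.

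The median log2 fold change of the list, 0.009, was -0.003 without a filter, -0.083 with at least 10 counts, -0.029 with curated records and -0.093 to 0.078 with a mouse left out. In 14 of the 32 tested genes the sign changed in at least 1 fit. Their main values ran from -0.537 for Fdft1 to 0.36 for Hsd17b7, so that some of them were not near 0. Ebp was -0.008 with upper-quartile normalization and -0.013 without a filter. Hmgcs1 was -0.003 without a filter and -0.704 with curated records. Tm7sf2 was -0.010 with the block and -0.039 with limma-voom, and Insig2 was 0.886 with curated records. With each mouse left out, log2 fold changes ran from -0.095 to 0.155 for Hmgcs1, -0.224 to 0.211 for Fdps, -1.015 to 0.140 for Fdft1, -0.330 to 0.128 for Lss, -0.283 to 0.397 for Tm7sf2, -0.006 to 0.637 for Hsd17b7 and -0.159 to 0.237 for Ebp. They ran from -0.232 to 0.005 for Srebf2, -0.176 to 0.012 for Insig2, -0.099 to 0.252 for Mylip, -0.132 to 0.544 for Acaca, -0.596 to 0.043 for Fasn, -0.210 to 0.316 for Scd1 and -0.368 to 0.793 for Scd2. Values also moved in genes that kept their sign. With each mouse left out they ran from -0.741 to -0.297 for Pmvk, 0.146 to 7.001 for Idi1 and 0.098 to 0.599 for Cyp51. For Stard4 they ran from 0.275 to 1.584, and for Acly from 0.102 to 0.303. Apart from the fewer genes or mice that some settings hold, the cause was not tested. Genes near the floor, such as Fdft1 and Elovl6, cannot show a moderate difference at this depth.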

Other observations

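Acacb, which makes malonyl-CoA at mitochondria, belongs to the list of other lipid synthesis genes but was below the low-count filter. It had 10.8, 10.3 and 26.4 normalized counts in control mice and 0, 3.04 and 0 in diseased-BWF1 mice. Every diseased-BWF1 mouse lay below every control mouse. The minimum of the filter was reached in 2 control libraries and 0 diseased-BWF1 libraries, so the gene was not tested with the others. When all genes were fitted, Acacb differed by -3.84 on the log2 scale (standard error 0.90, Benjamini-Hochberg adjusted p = 0.0636 in edgeR's quasi-likelihood fit). Acaca, which encodes the related cytosolic enzyme, had overlapping groups.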
